A study of Mus musculus with 10 samples.

Results

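Sox1, Sox2, Sox3, Sox7, Sox8, Sox9, Sox10, Sox17, Sox18 and Sox21 are 10 genes of the Sox family of transcription factors, chosen by name with earlier results of these data known. Of these, 9 were placed among the 22238 protein-coding genes of the GENCODE vM1 annotation of the mouse genome (mm9). For each gene, every site of 4 deposited ChIP-seq site lists that shared at least 1 bp with the gene body or the 5 kb on either side of it was collected. Sox1 has no gene in that annotation. Its start was placed at position 12395519 of chromosome 8, plus strand, by the 1 exact match in mm9 of its RefSeq start sequence of 300 bases (table build GRCm38.p6). Sites within 5 kb of that start were collected, and Sox1 was counted apart from the other 9.

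ChIP-seq sequences the DNA fragments that an antibody pulls down from chromatin. Suz12-TAP (FlagM2 antibody) and H3K27me3 were assayed in mouse ESCs of genotype Suz12 Suz12TAP/+, derived from BayGenomics gene trap line XG122, which expressed either Pcl3 shRNA or scramble shRNA, so that the control cells carried the tagged Suz12 allele too. Pcl3-TAP (FlagM2 antibody) was assayed in E14 ESCs that carried Pcl3-TAP and an shRNA, number 6 or number 7, against wild-type Pcl3. Of the 10 libraries, 6 were ChIP and 4 were input DNA, with 1 library per condition except for Pcl3-TAP and its input, which had 2 each and 1 site list between them. Clones were picked after lentiviral infection with the shRNAs, and the sources used here do not say how many clones each library held. The Suz12 and H3K27me3 libraries had no replicates and the 2 Pcl3-TAP libraries share 1 list, so no difference below was tested, every count describes these libraries, and each p-value is the deposited Skellam p-value of a site. The lists hold no read counts and no expression, so the depth behind a site, the level of Pcl3 after knockdown and the ESC identity of the cells could not be checked from them.

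Sox proteins bind DNA through an HMG box like that of Sry, and members of a group share sequence and function. The SoxB1 genes Sox1, Sox2 and Sox3 maintain neural progenitors, and Sox2 is also a core pluripotency factor of ESCs, whereas SoxE genes act in neural crest, glia, cartilage and testis and SoxF genes in endoderm and blood vessels. PRC2, of which Suz12 is a core subunit, trimethylates H3K27 at silent developmental genes, mostly over CpG-rich DNA, and Pcl3 (Polycomb-like 3) is one of its accessory subunits.

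The Suz12 list holds 8876 sites where Suz12-TAP in scramble cells exceeded input, and 5722 of them (64.5%) form the Suz12-depleted list, called lower in Pcl3 shRNA cells than in scramble cells. The depleted list repeats the position and p-value of the binding list, so it gives a call of lower Suz12 but not its size. The paper reports that Pcl3 knockdown also lowered Suz12 mRNA and protein, and proposes that this may account for part of the lower binding. For weaker Suz12 sites not reported before, it names weak binding or raised Suz12 levels in the tagged cells as possible sources. Neither proposal was tested here. The Pcl3 list holds 5242 sites of Pcl3-TAP against input, and the H3K27me3-depleted list 678 sites where H3K27me3 was lower in Pcl3 shRNA cells. A smaller p-value is called a stronger site below. At the strongest sites, 435 of Suz12 and 208 of Pcl3, the p-value was too small for the number format and was written as 0.

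Suz12 sites lay at 8 of the 9 annotated Sox genes, all but Sox2, while 28.8% of all protein-coding genes had one by the same rule. Each of these 8 genes also had a Suz12-depleted site, against 20.7% of all protein-coding genes and 71.7% of those with a Suz12 site. Pcl3 sites lay at 8 of the 9, all but Sox8, against 14.7% of all protein-coding genes. Of the 8 Sox genes with a Suz12 site, 7 had a Pcl3 site as well, where the share among all genes with a Suz12 site was 47.7%. H3K27me3-depleted sites lay at Sox8 and Sox9, 2 of the 9, against 3.14% of all protein-coding genes and 10.6% of those with a Suz12 site. Sox9 was thus the 1 annotated member of the 9 with a site in each of the 4 lists. Among families counted for context below, 3 of 9 Pax genes, 2 of 6 Gata genes and 1 of 10 other Sox genes had this too. Over all protein-coding genes the share with all 4 can be no larger than the 3.14% with an H3K27me3-depleted site.

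**Figure D1:**
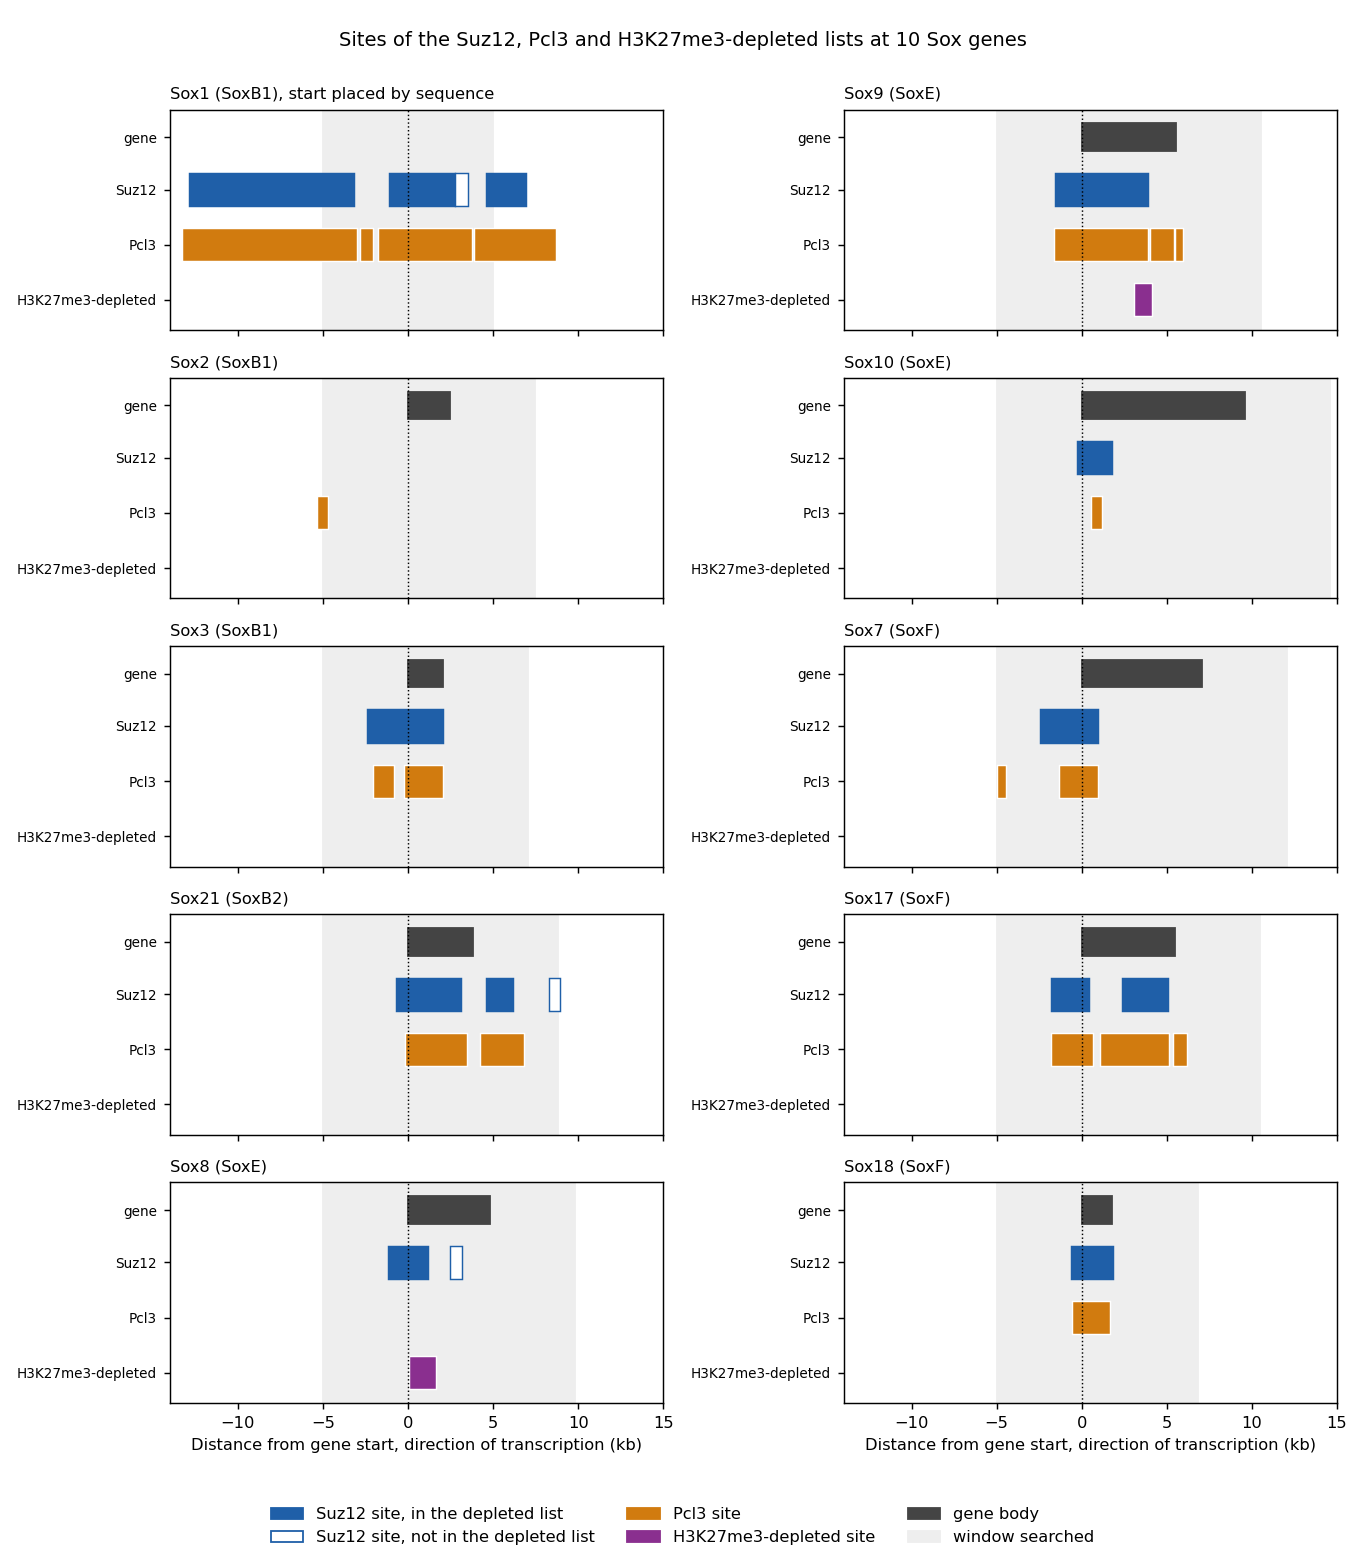
Sites of the 3 kinds at each Sox gene, drawn to scale against the distance from the gene start in kb, in the direction of transcription. Filled blue bars are Suz12 sites in the depleted list, open blue bars Suz12 sites outside it, orange bars Pcl3 sites, purple bars H3K27me3-depleted sites, dark bars gene bodies and grey the window searched. A filled Suz12 bar crosses the start of 9 of the 10 genes (Sox1 included), Sox2 has none, and purple bars appear at Sox8 and Sox9.

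The 250 bases before each start were read from mm9 in the direction of transcription, and 4 of them are printed here because they span the cases found: a start with no Suz12 site (Sox2), starts inside Suz12 sites with Pcl3 (Sox9, Sox17) and a start inside a Suz12 site but outside any Pcl3 site (Sox8). Capitals mark each CpG. The positions are chr3:34548677-34548926, plus strand, for Sox2, chr17:25707632-25707881, minus strand, for Sox8, chr11:112643288-112643537, plus strand, for Sox9 and chr1:4486495-4486744, minus strand, for Sox17.
Sox2: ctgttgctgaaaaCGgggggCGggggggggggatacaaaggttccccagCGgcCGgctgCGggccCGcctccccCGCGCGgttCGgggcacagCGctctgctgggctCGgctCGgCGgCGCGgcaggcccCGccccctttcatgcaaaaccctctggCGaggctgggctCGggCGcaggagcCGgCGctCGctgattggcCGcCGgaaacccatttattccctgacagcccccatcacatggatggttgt
Sox8: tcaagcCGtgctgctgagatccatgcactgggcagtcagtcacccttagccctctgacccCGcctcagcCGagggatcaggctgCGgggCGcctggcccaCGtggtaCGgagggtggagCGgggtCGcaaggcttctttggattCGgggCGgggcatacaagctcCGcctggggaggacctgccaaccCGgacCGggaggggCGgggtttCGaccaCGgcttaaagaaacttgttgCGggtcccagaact
Sox9: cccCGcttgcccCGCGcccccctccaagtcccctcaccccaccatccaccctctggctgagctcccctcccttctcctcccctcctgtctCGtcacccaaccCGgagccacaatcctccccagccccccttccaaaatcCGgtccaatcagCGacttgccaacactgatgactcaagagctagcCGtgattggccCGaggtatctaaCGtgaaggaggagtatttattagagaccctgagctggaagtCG
Sox17: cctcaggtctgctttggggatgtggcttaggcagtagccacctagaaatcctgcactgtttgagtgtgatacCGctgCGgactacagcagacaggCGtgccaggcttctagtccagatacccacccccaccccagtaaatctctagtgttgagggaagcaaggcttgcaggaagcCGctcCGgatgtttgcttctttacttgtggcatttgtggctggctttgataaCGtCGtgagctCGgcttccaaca

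Sox2, which had no Suz12 site, held 25 CpG in these 250 bases, while Sox17 held 8 with its start inside a Suz12 site. Sox8 held 18 and Sox9 held 11. Among members not printed, Sox1 held 29, Sox7 28, Sox21 17, Sox3 16 and Sox18 11. The median over 22233 protein-coding genes was 8 CpG, and over the 4064 genes whose start lay inside a Suz12 site it was 16. These 9 members include Sox1 and leave out Sox10. Sox2 alone among them had no Suz12 site, so whether CpG number before the start goes with Suz12 binding was not tested. The motif GCGCGC, a palindrome that reads alike on both strands, occurred 5 times (overlaps counted) before Sox1, once each before Sox7 and Sox21, and not in the windows of Sox2, Sox3, Sox8, Sox9, Sox17 and Sox18. It was present before 13.2% of all protein-coding genes and before 26.1% of those whose start lay inside a Suz12 site.

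The 250 bases with the most CpG in the Suz12 site over the start of Sox10, outside untranslated exons, lay 854 to 1103 bp after the start, wholly in coding exon and wholly inside the Pcl3 site of that gene (chr15:78993817-78994066, minus strand), and held 31 CpG. The same search in the stronger Suz12 site of Sox17 gave 250 coding bases 4231 to 4480 bp after the start, inside a Pcl3 site (chr1:4482014-4482263, minus strand), with 32 CpG. Both stretches are printed, again with each CpG in capitals, and that of Sox17 can be set beside the CpG-poor sequence before its start.
Sox10 coding: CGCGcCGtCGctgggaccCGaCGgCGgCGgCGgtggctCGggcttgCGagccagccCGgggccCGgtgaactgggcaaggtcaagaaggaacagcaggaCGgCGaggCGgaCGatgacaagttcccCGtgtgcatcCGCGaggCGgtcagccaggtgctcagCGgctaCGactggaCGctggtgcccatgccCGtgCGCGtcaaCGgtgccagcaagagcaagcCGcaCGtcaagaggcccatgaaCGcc
Sox17 coding: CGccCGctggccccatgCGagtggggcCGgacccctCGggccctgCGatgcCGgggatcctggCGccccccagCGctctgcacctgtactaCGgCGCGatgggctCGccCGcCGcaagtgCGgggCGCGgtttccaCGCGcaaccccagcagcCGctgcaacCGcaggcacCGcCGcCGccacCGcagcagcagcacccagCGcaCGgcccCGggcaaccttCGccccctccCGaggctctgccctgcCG

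Counted in bins of 500 bp from 4 kb before to 8 kb after the start, the bin with the highest CpG density had its center inside a Suz12 site at all members but Sox2, and inside a Pcl3 site at all but Sox2 and Sox8. Suz12 sites already lay over the starts of all members but Sox2, and the position of the densest bin was not counted over all genes. The window extended farther after the start than before it. At every member the densest bin began at the start or after it. At Sox17 it lay 4000 to 4499 bp after the start with 10.8 CpG per 100 bp, and at Sox10 it lay 500 to 999 bp after the start with 11.0. The densest bins of all were those of Sox1 (15.6 CpG per 100 bp) and Sox21 (14.8), both 1500 to 1999 bp after the start. Sox2 reached 10.0 CpG per 100 bp from 500 to 999 bp after its start, more than the densest bins of Sox8 (9.0), Sox9 (9.4) and Sox7 (8.8), which lay inside Suz12 sites.

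**Figure D2:**
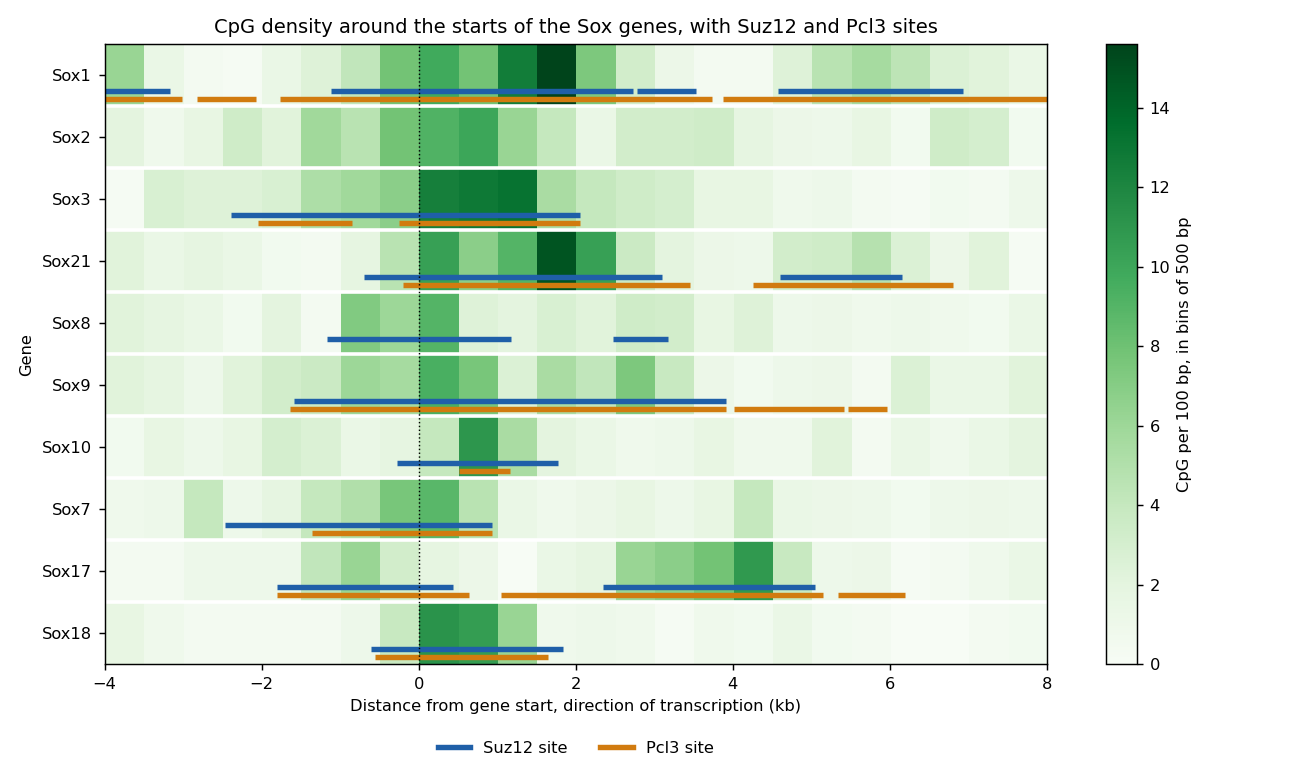
CpG per 100 bp in bins of 500 bp (green scale) against the distance from the gene start in kb, in the direction of transcription, 1 row per Sox gene, with blue lines for Suz12 sites and orange lines for Pcl3 sites cut at the edges of the plot. The darkest bin of each row lies over a blue line except at Sox2, where green bins around the start carry no line. In every row the darkest bin lies at or after the start, where the plotted range is longer, and farthest from the start at Sox17.

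Within the SoxB1 group, Sox2 differed from its relatives Sox1 and Sox3, which had Suz12 and Pcl3 sites over their starts. Sox2 (chr3:34548927-34551383, plus strand, a gene with 1 coding block) had no Suz12 site in its window. The nearest one, chr3:34540651-34541900 (p-value 3.38e-42, in the depleted list), ended 7027 bp before the Sox2 start, inside Sox2ot, the long noncoding RNA gene that spans the Sox2 locus. The only site of any list in the Sox2 window was a Pcl3 site of 650 bp, chr3:34543551-34544200, with a p-value of 1.36e-08, weaker than most of its list, of which 13.3% had a larger p-value. It lay between the Suz12 site and the gene, 1650 bp from the former and 4727 bp before the Sox2 start, and only 274 bp of it fell inside the 5 kb flank. Sox2 was in this sense 1 of the 6.8% of genes with a Pcl3 site that had no Suz12 site by the same rule.

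Sox3, an X-linked gene of the developing brain and pituitary, was covered by 1 Suz12 site of 4450 bp (chrX:58144551-58149000, p-value 8.26e-189), which reached from 2395 bp before the start to 2054 bp after it and took in 99.7% of the gene body (chrX:58144545-58146605, minus strand). The site was in the depleted list, and 97.2% of Suz12 sites were narrower. Pcl3 covered the same ground in 2 pieces, 2300 bp over the gene (p-value 2.71e-57) and 1200 bp upstream (p-value 2.38e-23), together 78.7% of the Suz12 site. In rank, the Suz12 site of Sox3 stood higher in its list than either Pcl3 site in its own, since 90.4% of Suz12 sites had a larger p-value but 81.1% and 60.7% of Pcl3 sites did.

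The region of Sox1, a neural progenitor gene, held the broadest block of sites among the members. A Suz12 site of 3850 bp with its p-value written as 0 crossed the placed start, from 1118 bp before it to 2731 bp after it. Another of 9700 bp, also written as 0, ended 3169 bp before the start, and only 24 of the 8876 Suz12 sites were wider. The last of the strong ones, 2350 bp (p-value 2.15e-182), began 4582 bp after the start. These 3 were in the depleted list. A narrow site of 750 bp (p-value 2.60e-17), just downstream of the site over the start, was not. All 4 were covered over their whole length by Pcl3 sites, of which 2 had p-values written as 0 and the largest was 10250 bp wide. In the annotation the gene Gm5607 runs from position 12385771 to 12436729, over all of this block but the first part of its widest Suz12 and Pcl3 sites, so the sites cannot be told apart as those of Sox1 or of Gm5607. The 100 kb on either side of the Sox1 start held no site of the H3K27me3-depleted list.

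Sox21, the SoxB2 member, which opposes SoxB1 activity in neural progenitors, had 3 Suz12 sites that became weaker with distance from the gene. The site over its start was 3800 bp wide with its p-value written as 0 and covered 81.7% of the gene body (chr14:118632454-118636252, minus strand). The next, 1550 bp wide with a p-value of 1.94e-61, lay beyond the end of the gene, 4602 to 6151 bp from the start. Both were in the depleted list, and Pcl3 sites of 3650 bp (p-value 1.85e-290) and 2550 bp (p-value 2.93e-70) lay over them. The farthest, 600 bp wide with a p-value of 3.73e-09, stood near the threshold of the list, was not in the depleted list and had no Pcl3 site over it.

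The SoxE genes separated more in Pcl3 than in Suz12. Sox9, a regulator of cartilage and testis, had the widest Suz12 site of the 9 annotated members, 5500 bp with p written as 0, from 1587 bp before the start to 3912 bp after it (chr11:112641951-112647450), and the site was in the depleted list. Pcl3 covered all of it in a site of 5550 bp (p-value 7.86e-293). It then went on past the end of the Suz12 site, after a gap of 100 bp, in a site of 1400 bp (p-value 9.08e-61) and a weak one of 500 bp (p-value 3.50e-09) that shared no base with any Suz12 site. Pcl3 sites thus took in 97.3% of the Sox9 gene body and Suz12 sites 70.7%.

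Sox10, a regulator of neural crest and glia, had a single Suz12 site of 2050 bp (p-value 6.13e-88), from 280 bp before the start to 1769 bp after it, in the depleted list. Its Pcl3 site was 650 bp wide with a p-value of 2.33e-12, lay 520 to 1169 bp after the start and shared 31.7% of the bases of the Suz12 site. Among members where both were present, that was the smallest shared part of any Suz12 site over a start. The Pcl3 site coincided with the CpG-rich coding stretch printed above.

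Sox8, which acts beside Sox9 and Sox10, had a Suz12 site of 2350 bp (p-value 2.61e-92) from 1169 bp before to 1180 bp after its start, in the depleted list, and no Pcl3 site in its window (chr17:25702837-25707631 for the gene, minus strand). The nearest Pcl3 site lay 8420 bp before the Sox8 start, in Lmf1, with a p-value of 2.57e-08. A weaker Suz12 site of 700 bp inside the gene (p-value 8.55e-14) was not in the depleted list. Sox8 and Sox10 thus had Suz12 sites of nearly the same strength over their starts, with −log10 p of 91.6 and 87.2, but Pcl3 was listed at 1 of them. Of the 388 Suz12 sites with −log10 p from 80 to 100, 17.5% shared no base with a Pcl3 site, and 387 were in the depleted list.

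The same 2 SoxE genes, Sox8 and Sox9, had the H3K27me3-depleted sites. At Sox8 this site was 1600 bp wide with a p-value of 6.04e-11, began 31 bp after the start, and shared 1150 bp with the Suz12 site there but no base with a Pcl3 site. At Sox9 it was 1050 bp wide with a p-value of 4.17e-08, lay 3063 to 4112 bp after the start over the end of the gene's coding sequence and its untranslated exon, and shared 850 bp with Suz12 and 950 bp with Pcl3. Neither crossed a gene start. The Sox8 site was stronger than 72.0% of its list, while 24.8% of the list had a larger p-value than the Sox9 site. From the starts of the other members, the nearest H3K27me3-depleted site lay between 346031 bp (Sox10) and 16003405 bp (Sox3) away, so the depleted Suz12 sites there had no listed H3K27me3 change near them. The list holds sites called lower at the authors' threshold, so a smaller change at those genes is not covered by it. Sox9 is the only member on chromosome 11. The paper reports that, after Pcl3 knockdown, Suz12 binding and H3K27me3 fell most on the chromosome that carries Sox9. Whether the calls of lower Suz12 and H3K27me3 at Sox9 go with its chromosome rather than with the gene was not tested.

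The SoxF genes were alike in having strong Suz12 and Pcl3 sites over each start, all Suz12 sites being in the depleted list, and they differed in extent. Sox18, a regulator of blood and lymph vessels, was covered from end to end by 1 Suz12 site of 2450 bp (chr2:181404501-181406950, p-value 7.67e-295), 89.8% of which was shared with a Pcl3 site of 2200 bp (p-value 6.93e-122). Sox7, which acts in endoderm and vessels, had a Suz12 site of 3400 bp (chr14:64560051-64563450, p-value 3.31e-242) that lay mostly before the gene, with 2460 bp upstream of the start and 939 bp downstream, so that 13.3% of the gene body was covered. The Pcl3 site there (2300 bp, p-value 4.21e-83) ended at the same base as the Suz12 site but began 1360 bp before the start. A second Pcl3 site of Sox7, 500 bp wide with a p-value of 5.16e-08, lay 4461 bp upstream and shared no base with Suz12.

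Sox17, a regulator of definitive endoderm, had 2 Suz12 sites with a gap between them inside the gene. The site over its start was 2250 bp wide (chr1:4486051-4488300, p-value 6.06e-218) and extended mostly upstream, 1806 bp before and 443 bp after the start. The other, 2700 bp wide with its p-value written as 0, lay 2344 to 5043 bp after the start and held 1257 bp of coding sequence (chr1:4481451-4484150). At Sox17 the strongest Suz12 site was therefore not the one over the start. Pcl3 followed both, with 2450 bp (p-value 1.21e-171) over the start and 4100 bp (p-value 2.85e-211) over the body, and bridged most of the gap, so that 89.1% of the gene body lay in Pcl3 sites and 57.3% in Suz12 sites. Another Pcl3 site of 850 bp (p-value 2.35e-19) past the end of the gene shared no base with Suz12.

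**Figure D3:**
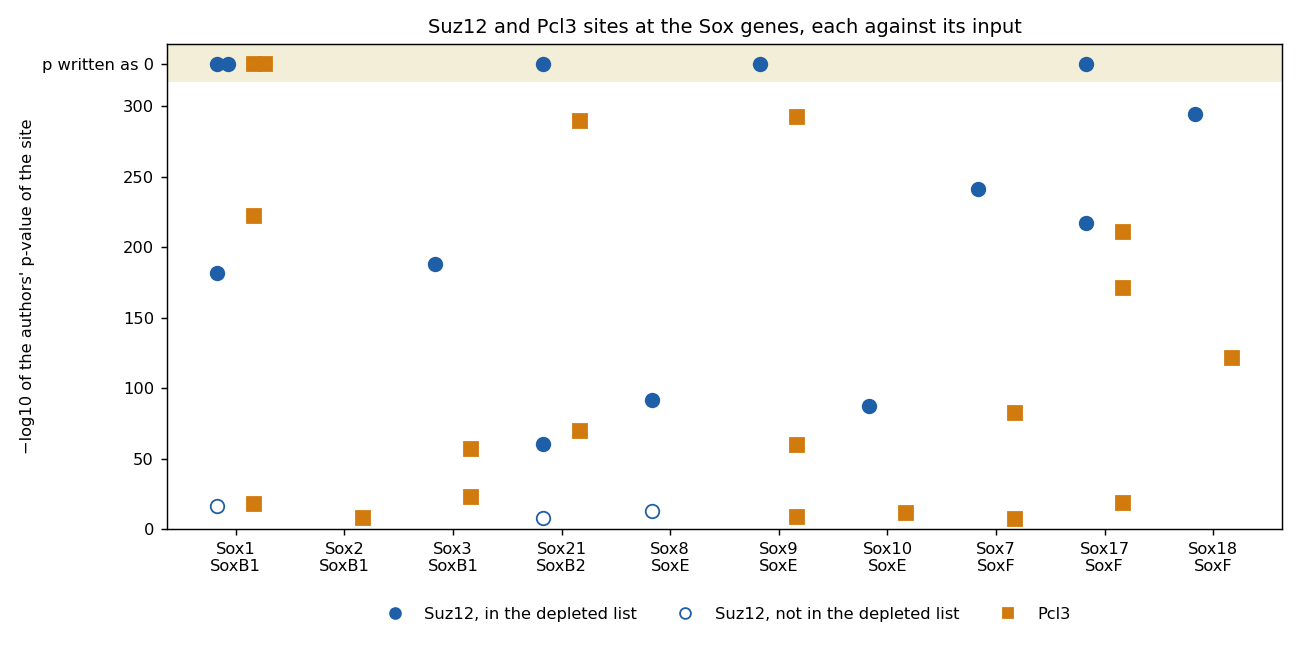
The −log10 of the deposited p-value of every Suz12 site (blue circles, filled where the site is in the depleted list) and Pcl3 site (orange squares) at each Sox gene, each assay against its input, with p-values written as 0 in the shaded band at the top. The 3 open circles, outside the depleted list, lie at 16.6 or below, and the only mark at Sox2 is a Pcl3 site at 7.9.

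Most of the members were bound at their starts. The start lay inside a Suz12 site at 8 of the 9 annotated members, against 18.3% of all protein-coding genes. It also lay inside a Pcl3 site at 6 of those 8, Sox3, Sox21, Sox9, Sox7, Sox17 and Sox18, against 39.4% of the genes whose start lay inside a Suz12 site. Sox8 and Sox10 were the others. The Suz12 sites over the starts of Sox3, Sox21, Sox8 and Sox9 also took in the starts of Gm14662, Gm4675, 2810468N07Rik and BC006965, respectively. These sites cannot be told apart as those of the Sox gene or of its neighbour. No start of the 9 lay inside an H3K27me3-depleted site, where 0.603% of all protein-coding genes had theirs.

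The 9 annotated members had 12 Suz12 sites, from 600 to 5500 bp wide with a median of 2400 bp, where the median of the whole list was 1100 bp. Of the 12 sites, 10 were in the depleted list, against 64.5% of all Suz12 sites, and 9 shared bases with a Pcl3 site, against 44.3%. The members had 15 Pcl3 sites, of which 10 shared bases with a Suz12 site, where 76.9% of all Pcl3 sites did. The 5 that did not were the Sox2 site, the weak upstream site of Sox7, the site past the end of Sox17 and the pair beyond the Suz12 site of Sox9.

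Whether a Suz12 site of a member was called depleted went with its strength. With Sox1 included, the 3 sites outside the depleted list, at Sox1, Sox21 and Sox8, had −log10 p of 16.6, 8.4 and 13.1, and the 13 inside it had 60.7 or more. Over the whole list, 4.96% of the 1531 sites with −log10 p under 10 were in the depleted list, 37.3% of the 2194 sites from 10 to 20, 99.0% of the 894 sites from 50 to 80, and all 435 sites with p written as 0. The members' sites followed the whole list in this, so that the call and the strength of a site cannot be told apart here. Among the sites written as 0, 100% shared bases with a Pcl3 site and 22.3% with an H3K27me3-depleted site, and of the members' 5 such sites (Sox1 with 2, Sox21, Sox9 and Sox17) only that of Sox9 had the latter.

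**Figure D4:**
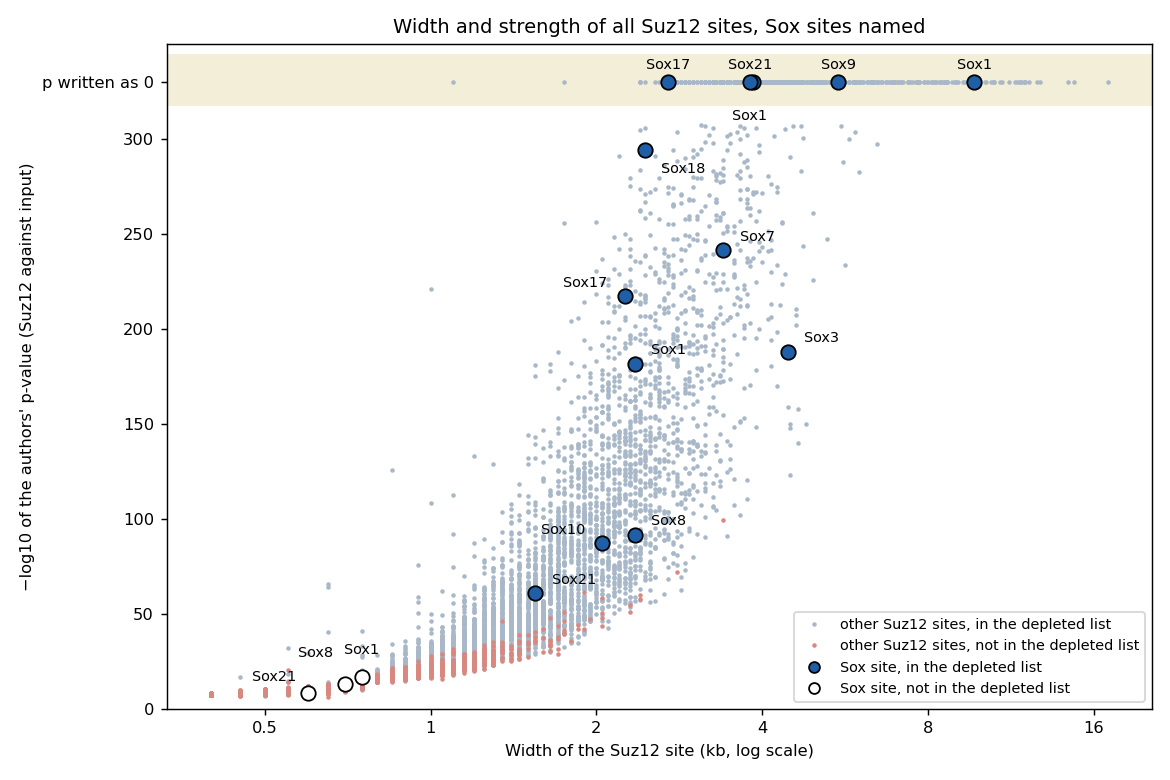
Width of each of the 8876 Suz12 sites (kb, log axis) against −log10 of its p-value, with p-values written as 0 in the shaded band, grey-blue points in the depleted list and red points outside it. The named circles are the Sox sites, filled where depleted: 13 lie in the upper, wide part of the cloud or the band, and 3 open ones lie in its lower left corner.

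CpG density over the members' Suz12 sites was close to that of the whole list and varied from site to site. The median over the 12 sites was 5.33 CpG per 100 bp, from 2.5 to 8.11, beside a median of 5.41 over all Suz12 sites with quartiles of 4.12 and 7.14. Among these 12, the site over the start of Sox21 was the densest at 8.11, followed by that of Sox3 at 7.46. The Suz12 sites of Sox1, counted apart, ran from 1.73 to 8.81, the latter over its placed start. The site over the start of Sox17 had 3.56 CpG per 100 bp, lower than the 6.67 of the site in its gene body. GCGCGC occurred in 8 of the 12 sites, and in 52.5% of all Suz12 sites, which differ in width. In the central 500 bp, equal in width for all, 37.5% of all Suz12 sites had it. Among the 12 it was there in the sites of Sox3, Sox10 and Sox18 and the gene-body site of Sox17, and in no other.

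The rest of the Sox family was counted by the same rule. Of 10 other Sox genes, Sox4 and Sox11 (SoxC), Sox5, Sox6 and Sox13 (SoxD), Sox14 (SoxB2) and Sox30 (SoxH) had sites in each of the 3 lists, and Sox12, Sox15 and Sry had none. The strongest Suz12 sites were those of Sox6 (4950 bp) and Sox14 (5400 bp), both with p written as 0. Sox14, the partner of Sox21 in its group, was the only one of the 10 with an H3K27me3-depleted site (1100 bp, p-value 8.48e-08). The smallest p-values of Suz12 at the other 5 lay between 9.86e-185 (Sox4) and 2.10e-66 (Sox30).

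Other families of developmental regulators were counted by the same rule for context. Of the Pax genes, 8 of 9 had sites in each of the Suz12, depleted and Pcl3 lists, and 3 had an H3K27me3-depleted site. Of the Gata genes, 5 of 6 had sites in each of those 3 lists and 2 had an H3K27me3-depleted site. For the Sox members, 2 of 9, the 95% Wilson interval of the H3K27me3 share ran from 6.32% to 54.7%, counting error over 9 genes only. These genes were chosen by name and not drawn at random, so the interval does not extend to other genes or libraries.

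**Figure D5:**
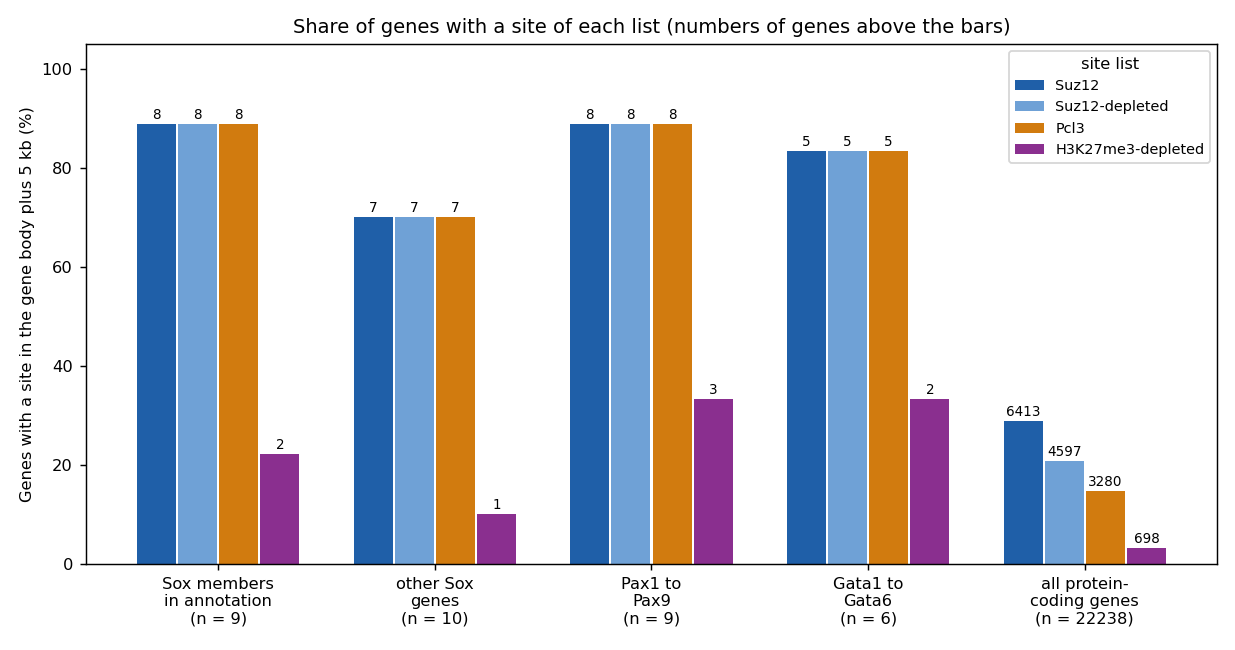
Percent of genes with at least 1 site of each list in the gene body plus 5 kb, for the 9 annotated Sox members, 10 other Sox genes, Pax1 to Pax9, Gata1 to Gata6 and all protein-coding genes, with the number of genes above each bar. The Sox, Pax and Gata bars for Suz12, Suz12-depleted and Pcl3 stand at 70.0% or higher, and those of all genes at 28.8%, 20.7% and 14.7%.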

How the data were processed

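Reads of 30 nucleotides were mapped uniquely to mm9 with bowtie by the authors, who set paired libraries to equal background, scanned the genome in 400 bp windows against a Skellam null (cutoff 1e-07), merged windows that overlapped and calculated a p-value anew for each merged site. The deposited lists, 4 in number, give this p-value and no read counts. How the 2 Pcl3-TAP libraries were combined is not given in the sources used here. Unique alignment leaves out repeats, and equal background is assumed on every chromosome. The Sox members and the gene lists were chosen with earlier results of these data known. All sites at all 10 members were named, with other Sox genes, Pax and Gata families as context. Sites were assigned by shared bases with the gene body plus 5 kb in GENCODE vM1, and shares have 95% Wilson intervals. Coordinates are 1-based. Sequences come from mm9, and 4 of the members matched in the RefSeq start table. The sequence before the start of 1 member is not reported here. The overlap code differed at 0 of 200 simulated windows from a search of all pairs. Alternatives were other flanks, overlap rules, p-value limits, merging and backgrounds, and Sox1, added after the data were seen. Python 3.11.15, numpy 2.4.6, pandas 2.3.3, pysam 0.24.0, scipy 1.17.1 and matplotlib 3.10.9 were used.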

Additional observations from a re-analysis of the deposited data

How the results depend on the processing

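The count of annotated Sox genes with a Suz12 site, and with a Suz12-depleted site, was 8 of 9 under every rule tried except a 10 kb flank, which added Sox2 and gave 9. For the depleted list the p-value limits act on the repeated binding p-value, so they do not test the call of lower Suz12. Counts of 2 kinds moved. H3K27me3-depleted sites lay at 2 members, but at 1 with p-values of at most 1e-10 or within 2 kb of the start, and at 0 with p-values of at most 1e-12. The number of Pcl3 sites was 15, but 9 within 2 kb of the start and 9 when sites less than 1 kb apart were merged. Members with a Pcl3 site numbered 8, and from 6 to 9 under the alternatives. Sox2 was lost when the center or 50% of the site had to lie in the window, with a flank of 2 kb or none, within 2 kb of the start, and with p-values of at most 1e-10, and Sox10 as well at 1e-12. The share of all genes with a site fell to 22.6% (Suz12), 16.3% (Suz12-depleted), 11.8% (Pcl3) and 2.48% (H3K27me3-depleted) with genes of any biotype, and to 23.1%, 16.4%, 11.6% and 1.57% within 2 kb of the start. Adding Sox1, an alternative chosen after the data were seen, gave 9 of 10 for Suz12, Suz12-depleted and Pcl3. Of 80 alternative values, 67 stayed within 1.5 times the reported count, the interval of the reported share or the spread of CpG density, 13 moved and 0 reversed. These values are counts, shares and a median without a sign, so the 0 is no measure of stability. No paired analysis was possible because the Suz12 and H3K27me3 comparisons rest on 1 library per condition and the 2 Pcl3-TAP libraries share 1 list without counts. The lists give no depth, so a gene without a site may have binding below the threshold.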
